A study of Homo sapiens with 12 samples.

Results

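Transcription factors that set B-cell identity or drive plasma-cell differentiation were followed as a group of 10 genes: PAX5, POU2AF1, POU2F2, SPIB, BACH2, BCL6, PRDM1, IRF4, XBP1 and IRF8. They were chosen by name from 18417 measured genes, by taking array probe sets annotated to exactly 1 gene symbol and, where a gene had several, the one with the highest mean over the 12 arrays. Each of the 10 genes had 1 such probe set, so that no choice between probe sets was needed.

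RNA came from U-H01, a Hodgkin lymphoma cell line, on 8 arrays and from HBL-1, a line of activated B-cell-like (ABC-like) diffuse large B-cell lymphoma (DLBCL), on 4. Per the labels, cells were infected with short hairpin RNAs (shRNAs) against RelB and cRel, subunits of the transcription factor NF-kB, with 2 sequences for each target, and doxycycline allowed the hairpin to be expressed. Part of every transduced population received doxycycline, the rest did not, and 2 time points were taken. The 4 groups were U-H01 labelled uninduced (4 arrays), U-H01 labelled induced (4 arrays), HBL-1 uninduced (2 arrays) and HBL-1 induced (2 arrays). The titles name the populations B1 and B2 for U-H01 and C for HBL-1. The induced B2 arrays also carry the mark Seq2, and the induced HBL-1 arrays are labelled Day1 and Day2. The sources used here do not state which of the hairpins each population carried or how long doxycycline was present. The design text speaks of wild type cells, but the labels give the uninduced arrays as infected cells too, so no untransduced cells were compared. The labels name no separate cultures for the arrays of a group, so p-values reflect only how these arrays scatter, and that scatter may be technical.

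PAX5 commits precursors to the B lineage and keeps mature B cells in it, while POU2AF1 (OBF-1), POU2F2 (OCT2) and SPIB support transcription from B-cell genes. BCL6 and BACH2 are repressors of the germinal centre and activated B cell that hold back plasma-cell differentiation, which PRDM1 (Blimp-1), IRF4 and XBP1 carry out. Hodgkin lymphoma cells are known for having lost much of the B-cell programme, whereas DLBCL of the ABC type keeps it and depends on IRF4 and SPIB together with constant NF-kB activity. The study asked what loss of single NF-kB subunits does to expression in either kind of lymphoma.

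Promoter sequence was in the RefSeq table (GRCh38.p14) for 9 of the 10 genes, all but POU2AF1, as a window from 250 bases before to 50 bases after the most upstream start. The windows were searched on both strands for 8 motifs known for this study's factors or for these genes: the kappaB consensus that NF-kB binds, the octamer ATGCAAAT, the interferon regulatory factor (IRF) repeat GAAANNGAAA, the ETS-IRF composite GGAANNGAAA, the BCL6 motif TTCCTAGAA, the PRDM1 motif GTGAAAG, the AP-1-like element TGANTCA and the cyclic AMP response element (CRE) TGACGTCA. The PRDM1 motif and the IRF repeat share the letters GAAA and can overlap, and the kappaB and CRE matches found here read the same on both strands. Over all 27305 windows, 10.8% held the kappaB consensus, 1.82% the octamer, 3.66% the IRF repeat, 2.83% the composite, 0.403% the BCL6 motif, 3.96% the PRDM1 motif, 7.72% the AP-1-like element and 1.97% the CRE. Among the 9 windows, SPIB held a kappaB match that starts at -197, BACH2 a CRE at -82 and BCL6 its own protein's motif at 37 on the minus strand. None of the other 5 motifs matched in any of the 9 windows. A match is a description of the letters and not a binding site.

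The bases before the SPIB start are shown because SPIB differed widely between the lines and holds the only kappaB match among the 9 windows (chr19:50418688-50418937, plus strand). The BACH2 stretch is shown because that gene also differed widely between the lines (chr6:90296844-90296993, minus strand). The PRDM1 bases are shown because its level differed most between U-H01 arrays of different induction label (chr6:106086086-106086335, plus strand). The short BCL6 stretch is shown for the motif of its own product (chr3:187745419-187745444, minus strand). All are written 5′ to 3′ along the gene's strand, from RefSeq, GRCh38.p14, with the matched motif in capitals and no match in PRDM1.
SPIB: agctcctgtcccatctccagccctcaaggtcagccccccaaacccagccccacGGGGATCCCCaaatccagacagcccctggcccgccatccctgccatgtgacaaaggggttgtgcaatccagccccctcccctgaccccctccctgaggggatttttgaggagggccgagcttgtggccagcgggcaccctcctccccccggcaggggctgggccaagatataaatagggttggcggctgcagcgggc
BACH2: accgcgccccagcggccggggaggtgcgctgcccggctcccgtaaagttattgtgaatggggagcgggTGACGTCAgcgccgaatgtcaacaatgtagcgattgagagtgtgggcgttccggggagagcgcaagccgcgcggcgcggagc
PRDM1: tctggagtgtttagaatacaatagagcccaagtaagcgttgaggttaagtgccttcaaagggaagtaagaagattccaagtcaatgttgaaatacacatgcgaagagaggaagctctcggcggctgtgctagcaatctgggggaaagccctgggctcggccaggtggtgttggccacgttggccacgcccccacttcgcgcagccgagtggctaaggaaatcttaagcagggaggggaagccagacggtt
BCL6: gatgcaagaagtTTCTAGGAAaggcc

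The U-H01 arrays labelled induced stood apart from the uninduced ones over all probe sets. Over the 19460 probe sets with 1 symbol, the correlation within a group was 0.991 to 0.996, and that of HBL-1 arrays of different induction label 0.992 to 0.994. U-H01 arrays of different label correlated at only 0.893 to 0.910, against 0.906 to 0.917 between U-H01 arrays labelled induced and HBL-1 uninduced ones. A check for mixed-up samples counted 4 of the 8 U-H01 arrays as not matching the others of that line and 0 of the 4 HBL-1 arrays. The check does not tell which of these 8 arrays belong to the line. U-H01 arrays are therefore named by their label alone below, and what set the groups apart was not tested. Log2 array medians lay between 5.79 and 5.88, and a difference measured near or below them may understate the true fold. The number of arrays limits the precision.

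The genes targeted per the labels, RELB for RelB and REL for cRel, check those labels. The design text also names RelA as knocked down, but no array analysed here is labelled with a hairpin against it, and RELA is given as well. RELB read 7.22, 7.38, 7.54 and 7.45 (log2 level) on the uninduced U-H01 arrays, in the order B1 time points 1 and 2, then B2 time points 1 and 2, and 7.22, 7.26, 7.40 and 7.14 on those labelled induced. In HBL-1 it read 7.67 and 7.67 uninduced and 7.57 and 7.40 induced. REL read 10.05, 9.98, 9.92 and 9.88 on uninduced U-H01 arrays and 10.14, 10.30, 9.95 and 10.26 on those labelled induced. In HBL-1 REL read 9.70 and 9.78 uninduced and 9.13 and 9.37 induced. Neither gene passed the test in either line (limma, Benjamini-Hochberg over all probe sets tested). RELB differed by -0.15 ± 0.09 (log2, induced minus uninduced label, ± standard error of the fit, SE) in U-H01 and by -0.19 ± 0.13 in HBL-1 (limma adjusted p = 0.209 and 0.749). REL read higher with the induced label in U-H01, by 0.20 ± 0.09, and lower in HBL-1, by -0.49 ± 0.12 (limma adjusted p = 0.0721 and 0.123). RELA was higher by 0.24 with the induced label in U-H01 and NFKB2 lower by 0.56 (limma adjusted p = 0.0229 and 0.000267). NFKB1 differed by 0.16 there (adjusted p = 0.16).

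**Figure D1:**
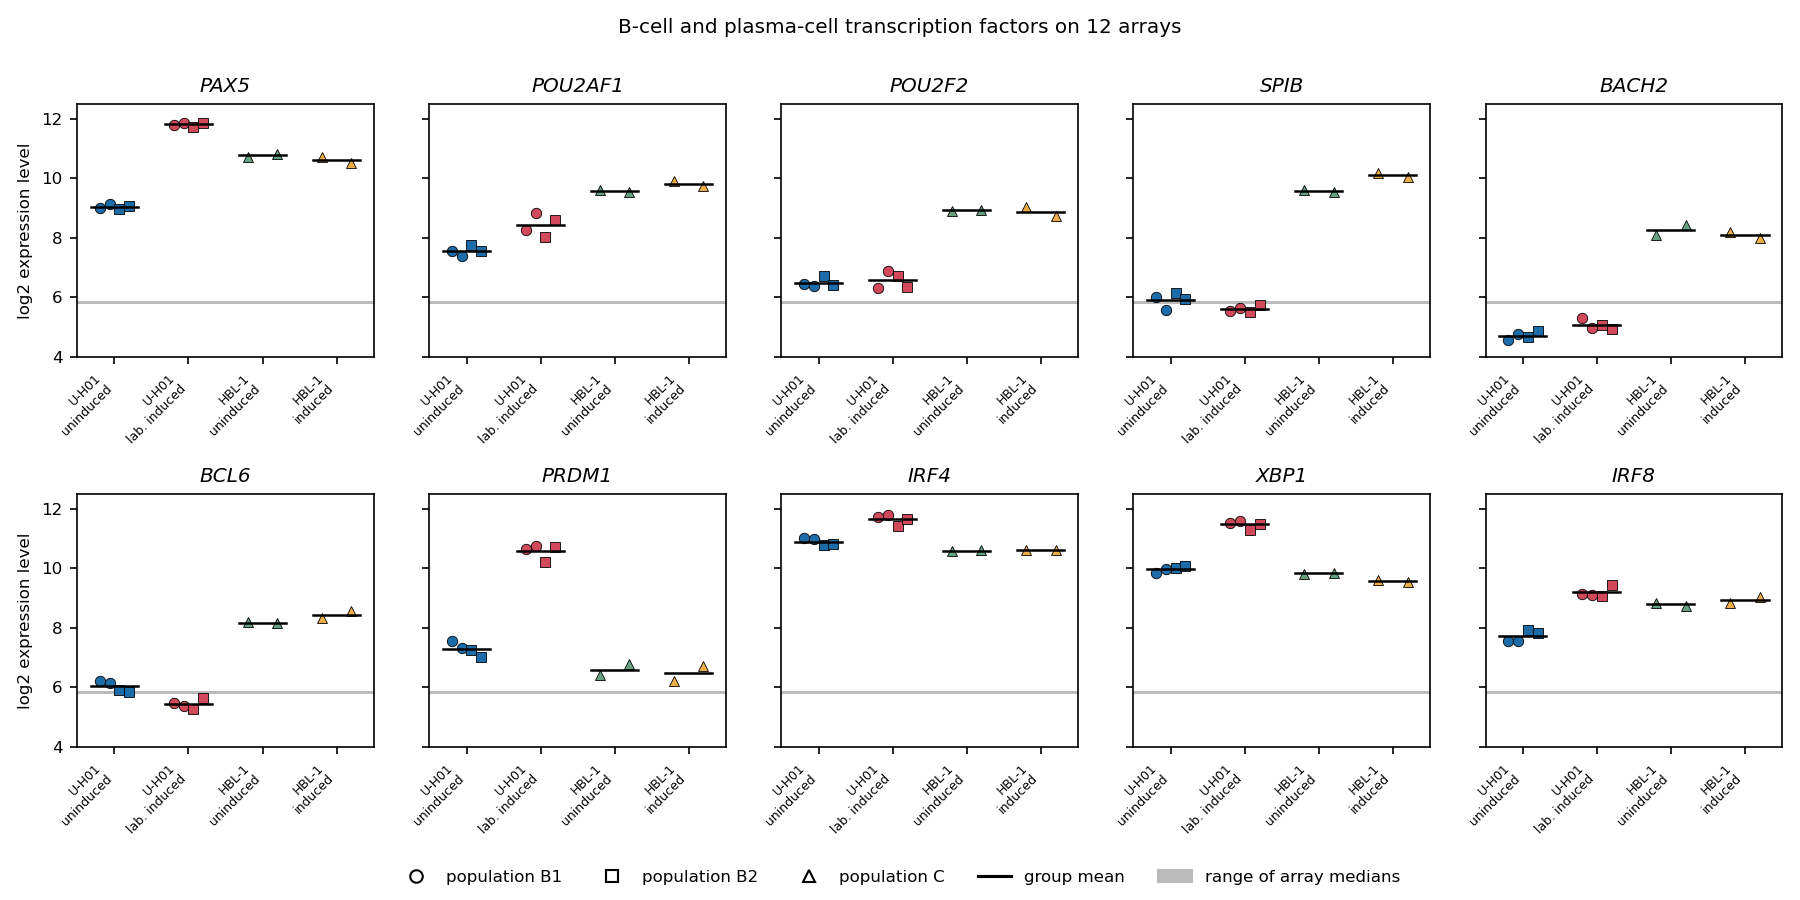
Log2 expression level (y axis) of each of the 10 genes on the 12 arrays, by group (x axis), with circles for population B1, squares for B2, triangles for C, black lines for group means and a grey band for the range of the array medians (5.79 to 5.88). PRDM1 on U-H01 arrays labelled induced (10.22 to 10.76) sits above every other array. SPIB, BACH2, BCL6, POU2F2 and POU2AF1 are lower on every U-H01 array than on every HBL-1 array.

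Between U-H01 arrays of different induction label, PRDM1 and PAX5 differed most, both higher on the arrays labelled induced. XBP1, IRF8, POU2AF1, IRF4 and BACH2 were higher there as well, BCL6 and SPIB were lower, and POU2F2 did not pass the test. In all, 9 of the 10 genes passed an adjusted p of 0.05, 7 of them higher and 2 lower. Over all genes 45.8% passed, 4115 higher and 4320 lower, so that passing is itself common in this comparison. In bulk RNA, fewer cells of a type and less RNA per cell cannot be told apart. The median difference of the 10 genes was 0.81 (log2), against 0.03 over all genes.

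PAX5, the B-lineage commitment factor, read 9.01 and 9.12 for B1 and 8.98 and 9.08 for B2 on the uninduced U-H01 arrays, at time points 1 and 2. On the arrays labelled induced it read 11.80 and 11.87 for B1 and 11.71 and 11.87 for B2. The groups were far apart, with less than 0.2 between arrays of a group. The difference was 2.77 ± 0.08 (log2, SE, 4 against 4 arrays), or 6.8-fold (limma adjusted p = 2.04e-11), and the 4 pairs, each of 1 population and 1 time point, gave 2.74 to 2.79.

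POU2AF1, the coactivator of the octamer factors, read 7.57 and 7.40 for B1 and 7.76 and 7.55 for B2 uninduced. The arrays labelled induced read 8.27 and 8.84 in B1 and 8.02 and 8.61 in B2. All of these lay above the uninduced arrays, by 0.86 ± 0.15 (limma adjusted p = 0.000303). The pairs differed among themselves more than for PAX5: the difference was 0.70 and 1.44 in B1 and 0.25 and 1.06 in B2, larger at time point 2 in both populations, which was not tested.

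POU2F2, the octamer factor itself, read 6.44, 6.38, 6.72 and 6.43 on uninduced arrays and 6.33, 6.89, 6.70 and 6.36 on those labelled induced, in the order B1 then B2. The groups overlapped, and the difference was 0.08 ± 0.14 (95% interval -0.22 to 0.37, limma adjusted p = 0.69). Only 1 of the 4 pairs was positive, B1 at time point 2, at 0.51.

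SPIB, an ETS-family factor of B cells and plasmacytoid dendritic cells, read 6.01, 5.58, 6.13 and 5.96 uninduced and 5.54, 5.64, 5.52 and 5.74 labelled induced, in the order B1 then B2. The groups overlapped, all values lay close to the array medians, and 1 of the 4 pairs had the opposite sign. SPIB passed the test as lower by -0.31 ± 0.11 (limma adjusted p = 0.0286). Centring each array on its median took this to -0.18 (adjusted p = 0.164) and quantile normalization to -0.19 (adjusted p = 0.143). The call was also lost without replicate 1 or 3 of the arrays labelled induced (adjusted p = 0.0725 and 0.124) or without replicate 1, 3 or 4 of the uninduced ones (0.111, 0.106 and 0.0623), where replicates 1 to 4 are B1 at time points 1 and 2 and B2 at time points 1 and 2. Testing all probe sets of the table lost it too (0.0509). Over 20 alternatives its adjusted p ran from 0.00351 to 0.164.

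Of the repressors, BCL6 was lower and BACH2 higher on the U-H01 arrays labelled induced, both by less than 1 log2 unit. BCL6, the germinal centre repressor, read 6.22 and 6.16 in B1 and 5.91 and 5.84 in B2 uninduced, and 5.47 and 5.37 in B1 and 5.28 and 5.65 in B2 labelled induced. The groups did not overlap, and BCL6 was lower by -0.59 ± 0.11 (limma adjusted p = 0.000504), with pairs from -0.79 to -0.19. The arrays labelled induced all lay below the lowest array median, so that the fold of 1.51 may be understated.

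BACH2, which represses PRDM1 in B cells, lay below the array medians on every U-H01 array, at 4.56, 4.76, 4.65 and 4.88 uninduced and 5.32, 4.98, 5.06 and 4.93 labelled induced. The groups did not overlap but came within 0.1 of each other. The difference of 0.36 ± 0.12 passed the test (limma adjusted p = 0.0285), with all 4 pairs positive, from 0.05 to 0.76. The call was lost without replicate 1 or 3 of the arrays labelled induced (adjusted p = 0.123 and 0.0583), or without replicate 1, 2 or 3 of the uninduced ones (0.119, 0.0506 and 0.0791). Testing probe sets without a single symbol as well also lost it (0.0554). Over 19 alternatives the adjusted p ran from 0.00589 to 0.123.

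The 3 plasma-cell factors were all higher on the U-H01 arrays labelled induced. PRDM1, the repressor that shuts down the B-cell programme in plasma cells, read 7.55, 7.33, 7.24 and 7.01 uninduced and 10.65, 10.76, 10.22 and 10.73 labelled induced. No array of either group came near the other. The difference was 3.31 ± 0.12 (limma adjusted p = 1.4e-10), a 9.9-fold higher level, with pairs from 2.98 to 3.72.

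XBP1, which builds the secretory apparatus of plasma cells, read 9.86, 9.97, 10.03 and 10.08 uninduced and 11.52, 11.59, 11.28 and 11.50 labelled induced. The groups did not overlap, and the difference was 1.49 ± 0.09, or 2.81-fold (limma adjusted p = 1.75e-08). IRF4, which acts in activated B cells and at higher dose in plasma cells, read 11.01, 10.98, 10.78 and 10.83 uninduced and 11.72, 11.80, 11.43 and 11.64 labelled induced. The arrays were again separate, at a smaller distance of 0.75 ± 0.08, or 1.68-fold (adjusted p = 3.03e-06).

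IRF8, a partner of the ETS factors in germinal centre B cells and a driver of myeloid fates, read 7.57, 7.54, 7.91 and 7.83 uninduced and 9.15, 9.09, 9.08 and 9.45 labelled induced. Every array labelled induced lay above every uninduced one, by 1.48 ± 0.10 on average (2.78-fold, limma adjusted p = 6.03e-08). The 4 pairs gave 1.16 to 1.61.

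In HBL-1 none of the 10 genes passed the test between induced and uninduced arrays (limma, 0 of 10), where 0.603% of all genes passed, 111 at an adjusted p under 0.05 and 1794 at an unadjusted one. Of the 10 genes SPIB alone had an unadjusted p under 0.05. SPIB read 9.61 and 9.53 uninduced and 10.19 and 10.05 induced, at time points 1 and 2. The groups of 2 arrays did not overlap, both pairs were positive (0.58 and 0.52), and the difference was 0.55 ± 0.15 (95% interval 0.22 to 0.88). Its adjusted p in the limma fit over all 12 arrays was 0.16. With the spread taken from the HBL-1 arrays alone the same 0.55 passed, with adjusted p = 0.00224, and with the U-H01 arrays labelled induced left aside it passed too, with adjusted p = 0.0378. The first of these fits rests on 4 arrays and has few residual degrees of freedom. The shares of all genes passing in these fits are not given here, and the 0.603% belongs to the fit over all 12 arrays. Over 21 alternatives the adjusted p ran from 0.00224 to 0.814.

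For the other B-cell factors the HBL-1 labels differed by at most 0.24 (log2). PAX5 read 10.72 and 10.83 uninduced and 10.73 and 10.53 induced, a difference of -0.14 ± 0.11 (limma adjusted p = 0.798). POU2AF1 read 9.62 and 9.53 uninduced and 9.90 and 9.73 induced (0.24 ± 0.21, adjusted p = 0.837). These intervals, -0.38 to 0.10 for PAX5 and -0.22 to 0.69 for POU2AF1, bound what these arrays allow. POU2F2 read 8.91 and 8.94 uninduced and 9.03 and 8.74 induced. IRF8 read 8.84 and 8.74 uninduced and 8.83 and 9.04 induced, and both genes overlapped between the labels.

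Repressors and plasma-cell factors did not pass in HBL-1 either. BCL6 read 8.19 and 8.17 uninduced and 8.33 and 8.55 induced, without overlap (0.27 ± 0.15, limma adjusted p = 0.657), and BACH2 read 8.10 and 8.44 against 8.20 and 7.98. PRDM1 read 6.41 and 6.77 uninduced and 6.22 and 6.73 induced, and IRF4 10.58 and 10.61 against 10.60 and 10.63, so that the labels overlapped for BACH2, PRDM1 and IRF4. XBP1 read 9.81 and 9.85 uninduced and 9.60 and 9.54 induced, lower in both pairs, by -0.26 ± 0.12 (adjusted p = 0.527).

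**Figure D2:**
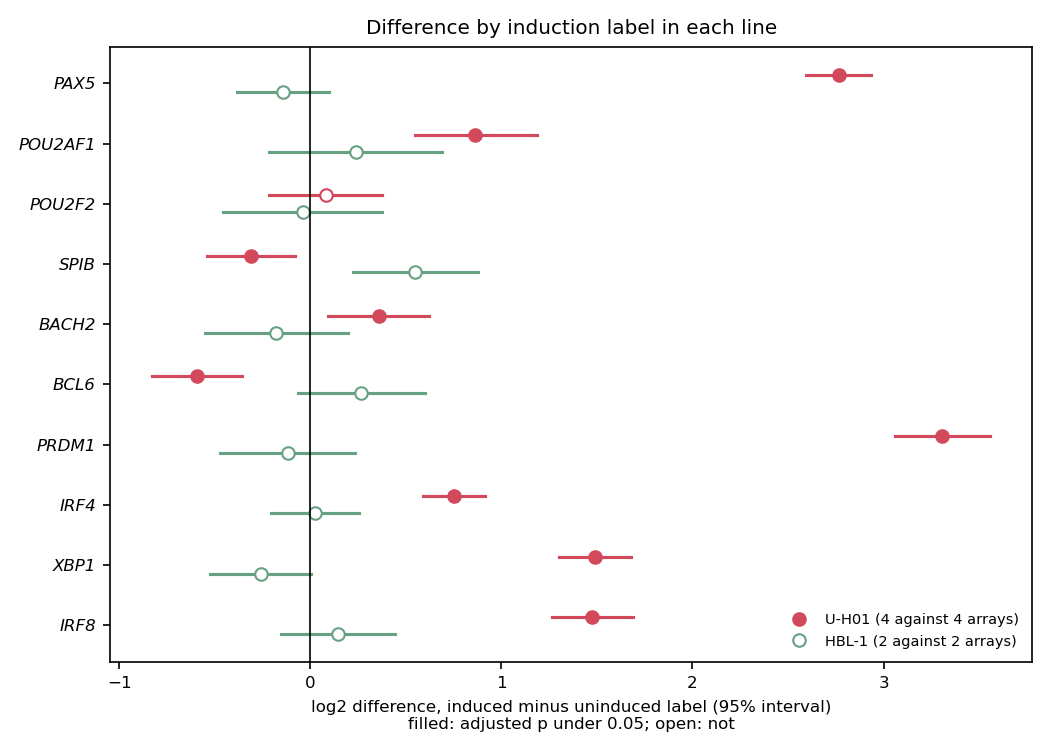
Log2 difference between arrays labelled induced and uninduced (x axis) for each of the 10 genes (y axis), in red for U-H01 (4 against 4 arrays) and green for HBL-1 (2 against 2), with bars for the 95% interval of the fit and filled points for an adjusted p under 0.05. PRDM1 (3.31) and PAX5 (2.77) lie farthest right for U-H01, while all 10 HBL-1 points lie between -0.26 and 0.55 and are open.

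The difference by label itself differed between the lines for 7 of the 10 genes (interaction in limma, adjusted p under 0.05), 5 higher and 2 lower in U-H01 than in HBL-1, where 32.4% of all genes passed. PRDM1 gave 3.43 ± 0.20 and PAX5 2.91 ± 0.14 (adjusted p = 5.89e-08 and 8.14e-09), followed by XBP1 at 1.75, IRF8 at 1.33 and IRF4 at 0.73. SPIB and BCL6 each gave -0.86, as they were lower with the label in U-H01 and read higher in HBL-1 (adjusted p = 0.00279 and 0.00313). Without replicate 2 of either HBL-1 group the BCL6 call was lost (adjusted p = 0.0554). POU2AF1 at 0.63 and BACH2 at 0.54 did not pass (adjusted p = 0.0812 and 0.0712). Leaving out replicate 3 of the uninduced or of the labelled induced U-H01 arrays made POU2AF1 pass (0.0155 and 0.0173), and leaving out replicate 1 of either HBL-1 group (0.0369) or replicate 4 of the uninduced U-H01 arrays (0.035) made BACH2 pass. Centring arrays on their medians also made both pass (0.0324 and 0.0362), and group means alone and quantile normalization made BACH2 pass (0.0455 and 0.0441). POU2F2 gave 0.12 (adjusted p = 0.763).

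Between uninduced arrays, the B-cell factors and the repressors were lower in U-H01 than in HBL-1. Of the 10 genes, 9 passed the test between the uninduced lines, 7 lower and 2 higher in U-H01, where 42.8% of all genes passed, and their median difference was -1.86 (log2) against -0.03 over all genes. Leaving aside the U-H01 arrays labelled induced left these counts as they were, with 9 passing, 2 higher and 7 lower. The share of all genes passing in that fit is not given here. The comparison shares its uninduced U-H01 arrays with the one by label in that line, so the differences of both are not independent.

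SPIB stood at 5.92 ± 0.24 (log2 level, mean ± SD, 4 arrays) in U-H01 and 9.57 ± 0.06 (2 arrays) in HBL-1, a difference of -3.65 ± 0.13 (SE), or 12.6-fold (limma adjusted p = 2.73e-10). BACH2 stood at 4.71 ± 0.14 against 8.27 ± 0.25, or 11.8-fold lower. The U-H01 level of BACH2 lies below the array medians and that of SPIB close to them, so neither fold can be ranked above the other. For both genes the nearest arrays of the lines were more than 3 log2 units apart. POU2F2 was 5.41-fold lower (-2.44 ± 0.17), BCL6 4.42-fold (-2.14 ± 0.13), POU2AF1 4.01-fold (-2.01 ± 0.18) and PAX5 3.3-fold (-1.72 ± 0.10), and no U-H01 array of these genes reached an HBL-1 one. IRF8 was 2.11-fold lower (-1.08 ± 0.12).

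Of the plasma-cell factors, PRDM1 and IRF4 were higher in uninduced U-H01 and XBP1 did not pass. PRDM1 stood at 7.28 ± 0.22 (SD) in U-H01 and 6.59 ± 0.26 in HBL-1, higher by 0.69 ± 0.14 (SE, limma adjusted p = 0.00138), and IRF4 at 10.90 ± 0.12 and 10.59 ± 0.03, higher by 0.31 ± 0.09 (adjusted p = 0.016). The PRDM1 call was lost without replicate 2 of uninduced HBL-1 (adjusted p = 0.0663), and the IRF4 call without replicate 1 or 2 of it (0.159 and 0.145) or with arrays centred on their medians (0.0647). XBP1 differed by 0.16 (95% interval -0.07 to 0.39, adjusted p = 0.281).

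On the arrays labelled induced, 9 of the 10 genes also passed between the lines, 4 higher and 5 lower in U-H01, where 38.5% of all genes passed. PAX5 was on the other side than before: at 11.81 ± 0.08 in U-H01 it lay above the HBL-1 induced arrays at 10.63 ± 0.14, by 1.19 ± 0.10 (SE, limma adjusted p = 5.86e-07). PRDM1 was higher by 4.12 ± 0.14, or 17.3-fold, XBP1 by 1.91 ± 0.11, or 3.75-fold, and IRF4 by 1.03 ± 0.09, or 2.05-fold. IRF8 differed by 0.25 (95% interval -0.01 to 0.51, adjusted p = 0.121) and passed without replicate 3 of the U-H01 arrays labelled induced (adjusted p = 0.02).

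The remaining B-cell factors and repressors kept their lower level in U-H01. SPIB was 22.8-fold lower (-4.51 ± 0.13, limma adjusted p = 5.7e-11), BACH2 8.11-fold, BCL6 8.03-fold, POU2F2 4.98-fold and POU2AF1 2.6-fold. SPIB, BACH2 and BCL6 read below or around the array medians on U-H01 arrays, so these folds may be understated.

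**Figure D3:**
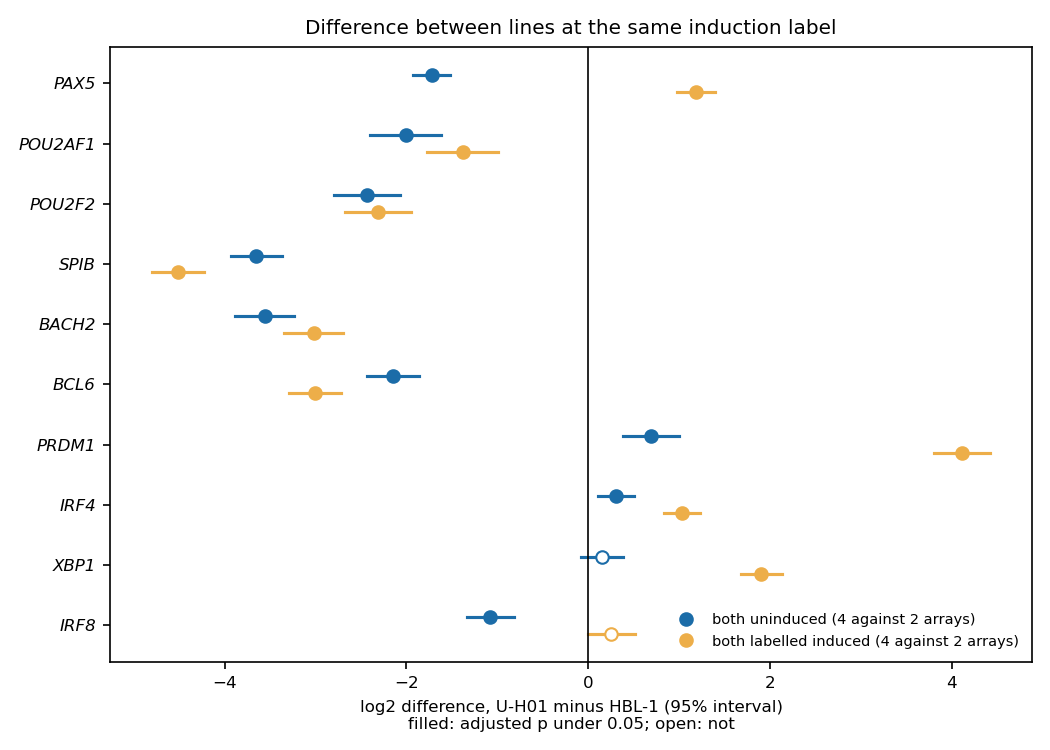
Log2 difference, U-H01 minus HBL-1 (x axis), for each of the 10 genes (y axis), in blue between uninduced arrays and in yellow between arrays labelled induced (4 against 2 arrays each), with bars for the 95% interval of the fit and filled points for an adjusted p under 0.05. PAX5 lies at -1.72 for the uninduced and at 1.19 for the arrays labelled induced, whereas SPIB, BACH2, BCL6, POU2F2 and POU2AF1 lie left of 0 in both.

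Ordered by group mean, the genes fell into different sequences. PAX5 ran from 11.81 on U-H01 arrays labelled induced through 10.77 and 10.63 in uninduced and induced HBL-1 to 9.05 in uninduced U-H01, and only the HBL-1 neighbours overlapped. For POU2AF1, POU2F2, SPIB, BACH2 and BCL6 both HBL-1 groups came before both U-H01 groups. In that order the U-H01 neighbours overlapped for POU2F2 and SPIB, and the HBL-1 neighbours for POU2F2 and BACH2. PRDM1, IRF4 and XBP1 began with U-H01 labelled induced and then uninduced U-H01, ahead of HBL-1, where XBP1 of uninduced U-H01 (9.98) and uninduced HBL-1 (9.83) differed by less than the test could call. IRF8 began with U-H01 labelled induced at 9.19 and ended with uninduced U-H01 at 7.71, with both HBL-1 groups between. The span from highest to lowest measured group mean was 4.51 log2 units for SPIB, 4.11 for PRDM1 and 3.56 for BACH2, and narrowest of the 10 for IRF4, at 1.06.

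The populations B1 and B2 of U-H01, named apart in the titles, were compared within the line. For the B2 minus the B1 difference by label 0 of 10 genes passed (limma), where 0.586% of all genes passed and 2103 had an unadjusted p under 0.05. XBP1 came nearest at -0.31 (95% interval -0.63 to 0.02, adjusted p = 0.469). On uninduced arrays, B2 against B1, 0 of 10 passed where 3.3% of all genes passed and 3245 had an unadjusted p under 0.05. Here IRF8 read higher in B2 by 0.32 (95% interval 0.03 to 0.61) and BCL6 lower by -0.32 (-0.61 to -0.02), with adjusted p = 0.24 and 0.245. On arrays labelled induced, 0 of 10 passed where 0.109% of all genes passed and 1537 had an unadjusted p under 0.05, and IRF4 came nearest at -0.23 (adjusted p = 0.617).

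Other transcription factors of B cells were counted from a list of 24 genes, 20 of them measured here. The list also holds genes that are not such factors themselves, among them ERN1 and TLE3, both counted as higher in the next comparison. Between U-H01 arrays of different label 10 were higher, 4 lower and 6 not past the test, where 45.8% of all genes passed (4115 higher and 4320 lower), with a median of 0.35 (log2) against 0.03 over all genes. ID2, an inhibitor of E proteins, was lower by -5.22 ± 0.14 and TCF4, an E protein, by -2.12 ± 0.08, while RUNX1, a haematopoietic factor, was higher by 1.87 ± 0.11 (limma adjusted p = 1.79e-11, 3.18e-10 and 1.42e-08). Between the uninduced lines, where 42.8% of all genes passed, 6 were higher and 10 lower in U-H01, among the latter IKZF3, RUNX1 and ID3, lower by -1.73, -1.88 and -1.97. On the arrays labelled induced, where 38.5% of all genes passed, 9 were higher and 7 lower in U-H01 than in HBL-1, with RUNX3 higher by 2.52 and TCF4 and ID2 lower by -2.79 and -4.83.

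The rest of the IRF family, 6 of 7 listed genes measured, had a median of -0.41 (log2) between U-H01 arrays of different label, against 0.03 over all genes, of which 45.8% passed. IRF2 was higher by 1.25 ± 0.09, 4 genes were lower, among them IRF5 at -0.86 ± 0.08 and IRF3 at -0.49 ± 0.07 (limma adjusted p = 2.18e-07, 2e-06 and 0.00012), and 1 did not pass. IRF4 and IRF8, at 0.75 and 1.48, lay on the side of IRF2. In uninduced U-H01 IRF1, IRF5 and IRF9 were higher than in HBL-1, by 1.87, 1.14 and 0.73, and the other 3 did not pass. Of all genes 42.8% passed there.

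Of genes known to be activated by PAX5, 8 of 9 listed were measured. On the U-H01 arrays labelled induced 4 were higher, 1 lower and 3 not past the test, where 45.8% of all genes passed, with a median of 1.10 (log2) against 0.03 over all genes. CD79A, a signalling chain beside surface immunoglobulin, was higher by 5.31 ± 0.11 and CD22, an inhibitory receptor, by 4.11 ± 0.12, whereas LEF1, a Wnt-pathway factor, was lower by -4.33 ± 0.10 (limma adjusted p = 2.21e-12, 3.26e-11 and 2.5e-12). In uninduced U-H01 5 of the 8 were lower than in HBL-1 and none higher, where 42.8% of all genes passed. BANK1, BLNK and CD79A lay at -5.34, -4.14 and -5.53. On the arrays labelled induced, where PAX5 was above HBL-1, 2 of its listed targets were higher and 5 lower. Of all genes 38.5% passed there. BANK1 was still at -4.98 and CD72 at -3.09. LEF1 lay at -4.31 here, whereas between the uninduced lines it differed by 0.065 (limma adjusted p = 0.717). The 2 higher ones were CR2, by 4.37, and CD22, by 2.66.

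Plasma-cell and secretory genes, 18 listed and measured, had calls both ways: between U-H01 arrays of different label 9 were higher, 3 lower and 6 not past the test, where 45.8% of all genes passed, with a median of 0.22 (log2) against 0.03 over all genes. CD38, an ectoenzyme of plasma cells, was higher by 6.62 ± 0.12, CD27, a costimulatory receptor, by 3.004 ± 0.13 and MZB1, a chaperone of immunoglobulin assembly, by 1.42 ± 0.12 (limma adjusted p = 5.26e-13, 1.59e-09 and 7.55e-07). Between the uninduced lines 3 were higher and 8 lower in U-H01, where 42.8% of all genes passed. ELL2, an elongation factor of secretory cells, was higher by 4.24 and SLAMF7 and JCHAIN were lower by -4.16 and -3.05. With both lines labelled induced 5 were higher and 5 lower, where 38.5% of all genes passed. ELL2, CD38 and CD27 were higher by 3.92, 4.33 and 4.32.

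Genes known to be repressed by BCL6, 9 of 10 listed measured, had calls both ways: 4 were higher and 5 lower on the U-H01 arrays labelled induced, with a median of -1.50 (log2) against 0.03 over all genes. Over all genes 45.8% passed there, 4115 higher and 4320 lower. CD80, a costimulatory ligand, was lower by -4.37 ± 0.12 and ID2, also on the list of B-cell factors, by -5.22 ± 0.14, whereas PRDM1, also on this list, was higher by 3.31 ± 0.12 (limma adjusted p = 1.24e-11, 1.79e-11 and 1.4e-10). In uninduced U-H01 5 were higher and 4 lower than in HBL-1, where 42.8% of all genes passed. CXCL10 and CD80 were higher by 5.94 and 2.93 and CCND2 was lower by -1.73. On the arrays labelled induced 3 were higher and 4 lower than in HBL-1, where 38.5% of all genes passed. Between induced and uninduced HBL-1 arrays 0 genes of any of these 5 lists passed (limma), where 0.603% of all genes passed.

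**Figure D4:**
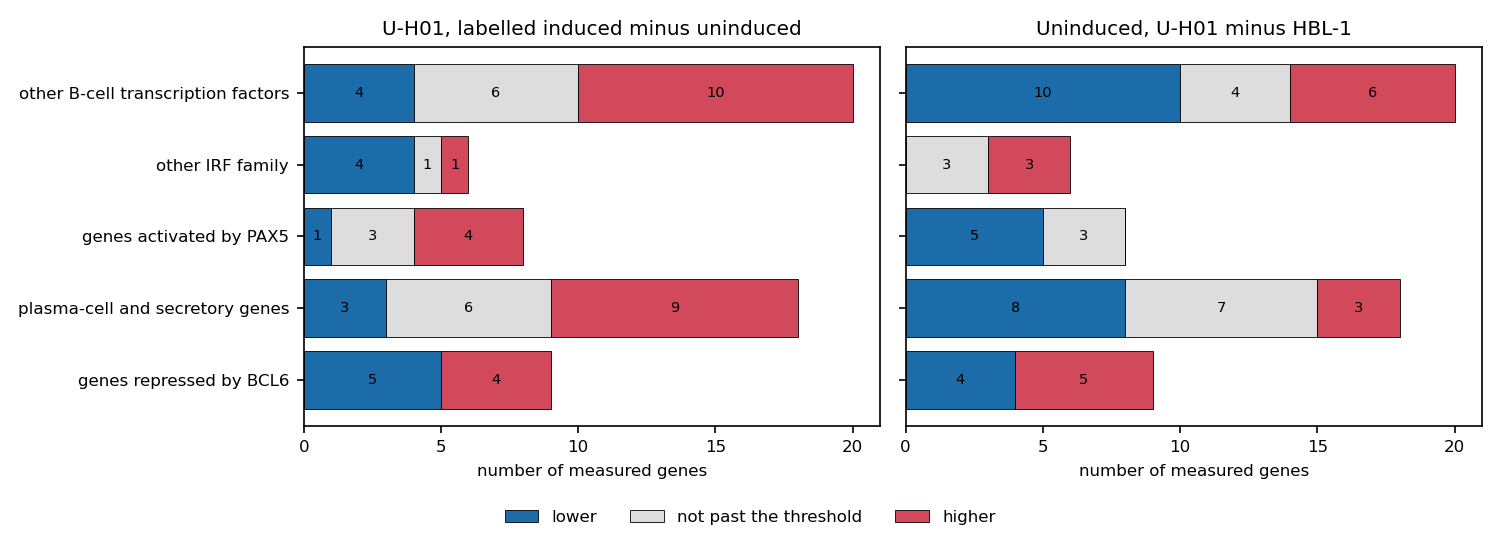
Number of measured genes (x axis) of 5 lists of related genes (y axis) that were lower (blue), not past an adjusted p of 0.05 (grey) or higher (red), on the left between U-H01 arrays labelled induced and uninduced and on the right between uninduced U-H01 and HBL-1. Of the 8 genes activated by PAX5, 4 were higher and 1 lower on the left, and 5 were lower and 0 higher on the right. Over all genes 45.8% passed on the left and 42.8% on the right.

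Markers of cell types were read beside these differences, and their part in them was not tested. The mean log2 level of 5 measured B-cell markers ran from 6.19 to 6.39 on uninduced U-H01 arrays, 8.05 to 8.38 on those labelled induced and 10.03 to 10.10 in HBL-1. MS4A1 (CD20), a defining marker of mature B cells, was at 4.49 and 4.52 in the U-H01 groups and at 10.98 and 10.97 in the HBL-1 groups. In U-H01 it lay below the array medians under both labels, and CD79B, the partner of CD79A, did not pass between them (-0.06, limma adjusted p = 0.751). The other 3 B-cell markers, CD79A, CD22 and PTPRC, were higher with the induced label there, by 5.31, 4.11 and 0.48. None was lower. Plasma-cell markers, 5 measured, averaged 5.91 to 6.36 on uninduced U-H01 arrays, 7.65 to 8.09 on those labelled induced and 7.56 to 7.82 in HBL-1. Between the U-H01 labels 3 were higher and 2 lower, where 45.8% of all genes passed. Higher on the arrays labelled induced were CD38, TNFRSF17 and MZB1, by 6.62, 1.72 and 1.42. Lower there were SDC1 (CD138), the defining one, by -0.39 ± 0.08 and JCHAIN by -0.86 ± 0.16 (adjusted p = 0.0012 and 0.000533). JCHAIN lay below the array medians under both labels, at 4.68 uninduced and 3.82 labelled induced.

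Markers of T and NK cells and of myeloid cells averaged below the array medians in every group, which those of stroma, endothelium and epithelium did not on uninduced U-H01 arrays. T and NK cell markers, 9 measured, averaged 4.69 to 4.81 on uninduced U-H01 arrays and 5.0 to 5.17 on those labelled induced, and 4.66 to 4.85 in HBL-1. Between U-H01 arrays of different label, where 45.8% of all genes passed, 3 of them were higher with the induced label. These were ZAP70, NKG7 and CD2, by 2.09, 0.62 and 0.36, while CD3D, CD3E and CD3G did not pass. Myeloid markers, 6 measured, averaged 4.40 to 4.59 and 4.35 to 4.65 in the same groups and 4.48 to 4.56 in HBL-1, none above the array medians in any group. ITGAM was lower by -0.40 on U-H01 arrays labelled induced than on uninduced ones. Markers of stroma, endothelium and epithelium, 8 measured, averaged 6.05 to 6.21 and 5.61 to 5.76, and 5.67 to 5.79 in HBL-1, and 3 to 5 of them lay above the array median on each array. On U-H01 arrays labelled induced, against uninduced ones, PECAM1 was lower by -5.60 (10.64 to 5.04), KRT8 lower by -0.54 and CDH1 higher by 2.32.

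For genes whose group means spanned more than 2 log2 units, the other genes with the most similar profile were found by the root mean square (rms) difference over the 12 arrays, after centring each gene on its mean. PAX5 was matched most closely, by ATP2A3 (rms 0.11 log2) and FAM53B (0.15), then POU2F2 by CHFR (0.15) and TESPA1 (0.18). BACH2 had ZNF761 (0.18) and SLC7A7 (0.19), BCL6 had HHEX (0.19) and INPP5F (0.19), and POU2AF1 had PTPN6 (0.19) and TMEM131L (0.21). HHEX is on the list of other B-cell factors and was lower by -0.80 between U-H01 arrays of different label and by -2.05 between the uninduced lines. The closest to SPIB were LRP6 (0.21) and ZNF860 (0.24), and to PRDM1 CAV1 (0.24) and HLA-DQA1 (0.29), which were the only 2 genes within 0.3 of PRDM1. These are descriptions over 4 groups, with all genes read on the same 12 arrays.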

How the data were processed

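Expression was read on 12 single-colour arrays. The authors deposited log2 values, for which the submitters' processing notes name Partek and RMA (versions: not given in the sources used here). Because RMA normalizes the arrays together, a global shift of expression could be hidden. Of 33297 probe sets, 19460 had 1 gene symbol, 1754 several and 12083 none, and only the first kind was used, for 18417 genes (769 with several probe sets). Entrez identifiers of 19429 matched the GRCh38.p14 gene table. No pair of arrays was identical (0 pairs).

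One limma 3.58.1 model (R 4.3.3, lmFit and eBayes) covered all 12 arrays, with 7 terms for population, time point within line and induction within line and 5 residual degrees of freedom. Comparisons of B2 with B1 used 8 terms and 4. Tests were two-sided, adjusted by Benjamini-Hochberg over the 19460 probe sets, with calls at 0.05. The model was tested on simulated data. Alternatives were the replicate block, other covariates, shrinkage, filters and scalings, and each array left out. An alternative without the U-H01 arrays labelled induced was added after seeing the data.

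Arrays were paired by their labels. Per the labels' protocols, an induced array and the uninduced one of its population and time point come from 1 split infected population. For U-H01 this rests on the labels alone, as 4 of its 8 arrays did not match the others of that line. Correlations of the paired arrays' departures from the group means were 0.14 and -0.02 in B1, 0.10 and 0.03 in B2 and 0.09 in C. The 10 genes and the lists were chosen with earlier results of these data known. Genes named in the text are the 10, the 5 NF-kB subunit genes, the 3 with the smallest p of each list in the comparison described and the 2 nearest in profile to each of the 10 that spans over 2 log2 units. Marker genes and HHEX in 2 comparisons were named after their values were seen. The same holds for ERN1, TLE3, CR2, CD22 against HBL-1 and LEF1 between the uninduced lines. Plotting used Python 3.11.15 and matplotlib 3.10.9.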

Additional observations from a re-analysis of the deposited data

Results flagged for a closer look

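Of 20 combinations of a gene and a group of 4 arrays examined for an array apart from the rest, 1 stood out, where chance gives about 1 in 20. POU2F2 on the uninduced U-H01 array of population B2 at time point 1 read 6.72 (log2 level), above the 6.38 to 6.44 of the other 3.

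The difference by induction label differed between U-H01 and HBL-1, by the interaction term in limma, for 7 of the 10 genes. Of all genes 32.4% passed this comparison. It was larger in U-H01 by 2.91 (log2) for PAX5, 3.43 for PRDM1, 1.75 for XBP1, 1.33 for IRF8 and 0.73 for IRF4. It was lower in U-H01 by -0.86 for SPIB and by -0.86 for BCL6. The U-H01 arrays labelled induced stand apart from the uninduced ones over all probe sets, with correlations of 0.893 to 0.910 against 0.992 to 0.994 in HBL-1, and what that contributes was not tested.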

How the results depend on the processing

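Over 80 combinations of a gene and a comparison, 1552 values under alternatives were computed. In 32 of them, spread over 9 combinations, a gene changed its side of the threshold (20 lost and 12 gained a call), and 0 called values changed sign. For HBL-1, induced minus uninduced, 1 of the 10 genes (SPIB) passed with the arrays of the line alone, and 1 with the U-H01 arrays labelled induced left aside, against 0 otherwise. The shares of all genes passing in those fits are not given here. In U-H01 by label 7 to 9 genes passed, between the lines 7 to 9 uninduced and 8 to 10 labelled induced, for the interaction 6 to 9, and in the 3 comparisons of B2 with B1 0 throughout. In the main fits 45.8% of all genes passed in U-H01 by label. Between the lines 42.8% passed uninduced and 38.5% labelled induced, and 32.4% passed for the interaction. The shares under the alternatives, the replicate block included, are not given here. BACH2 was not among the probe sets above the median level, so that alternative did not test it. With the replicate block, 9 of the 10 genes passed in U-H01 and 0 in HBL-1, and the pairing changed no call. It could not be fitted between the lines or between B2 and B1 within a label. Centring arrays on their medians moved the median difference of all genes in U-H01 by label from 0.03 to 0.16 (log2) and in the interaction from 0.04 to 0.16, and the PAX5 level in uninduced U-H01 from 9.05 to 8.98. Where only probe sets above the median level were kept, 4 of the 8 measured genes activated by PAX5 remained, of which 3 passed between the uninduced lines. The share of all genes passing in that filtered fit is not given here, and the 42.8% belongs to the main fit. A trial of other probe sets for a gene gave no value, since each gene has 1. The number of arrays limits all of these, and signal over background limits SPIB, BACH2 and BCL6 in U-H01.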
